A study of Mus musculus with 4 samples.

Results

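A set of 5 genes of peptide stress signalling was read across skeletal muscle of mice with and without the corticotropin-releasing factor (CRF) receptor CRHR2: the receptor genes Crhr2, Crhr1 and Adcyap1r1, and the precursor genes Pomc and Penk. They were represented by 9 of the 12422 probe sets tested, and every probe set that the platform annotation assigns to only one of these genes was read separately. The 5 genes were chosen by their place in this pathway and with the knockout against wild-type differences on these same arrays already known. Their differences are therefore given as values with errors and without a test.

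The wild-type group (WT, Crhr2+/+) and the knockout group (KO, Crhr2-/-) were male littermates of C57BL/6x129 background, 6.5 months old and untreated. Gastrocnemius and soleus muscle were sampled as 1 tissue. Each of the 4 Affymetrix U74Av2 arrays carried pooled RNA of 2 mice, which gives 2 arrays and 4 mice per genotype. The spread between arrays is thus the spread between pools, and 2 against 2 arrays cannot give an exact permutation p below 0.333. The part of Crhr2 that the knockout allele lacks, and where the probes lie relative to it, were not known here. In whole muscle, fewer cells of a type and less RNA per cell cannot be told apart.

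CRF is the hypothalamic peptide that starts the pituitary-adrenal stress response. It acts mainly through CRHR1, whereas the related urocortins are the main ligands of CRHR2, which is made in the heart, blood vessels and skeletal muscle as well as in the brain. Both are class B receptors that couple to the stimulatory G protein and cyclic AMP, as does the product of Adcyap1r1, the receptor PAC1 for the neuropeptide PACAP. Pomc encodes the precursor of corticotropin, the melanocortins and beta-endorphin, and CRF stimulates its transcription and the release of corticotropin in the pituitary. Penk encodes the precursor of the enkephalins, opioid peptides of nerve, adrenal and immune cells.

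The proximal promoters of Crhr2 and Pomc are shown because Crhr2 is the targeted gene and Pomc is the hormone precursor downstream of CRF. Both had a probe set with lower values on both KO arrays, but so did Crhr1 and Adcyap1r1, whose windows are not printed. The sequences are from RefSeq on GRCm38.p6, 5' to 3' on the gene's own strand, with 250 bases before and 50 after the start of transcription. Crhr2 is at chr6:55132967-55133266 (minus strand) and Pomc at chr12:3954695-3954994 (plus strand). Capitals mark TATAAA, the TATA box, and AAGGTCA, a part of the binding motif of the NR4A nuclear receptors. Only this part of that motif was searched for, so a match does not show a full NR4A motif.
Crhr2: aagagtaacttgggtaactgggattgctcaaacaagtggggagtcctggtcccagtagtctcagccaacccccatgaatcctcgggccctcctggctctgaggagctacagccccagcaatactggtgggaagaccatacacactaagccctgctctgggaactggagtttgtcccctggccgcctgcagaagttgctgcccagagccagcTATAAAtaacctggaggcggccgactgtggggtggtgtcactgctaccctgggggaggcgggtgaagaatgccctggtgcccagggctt
Pomc: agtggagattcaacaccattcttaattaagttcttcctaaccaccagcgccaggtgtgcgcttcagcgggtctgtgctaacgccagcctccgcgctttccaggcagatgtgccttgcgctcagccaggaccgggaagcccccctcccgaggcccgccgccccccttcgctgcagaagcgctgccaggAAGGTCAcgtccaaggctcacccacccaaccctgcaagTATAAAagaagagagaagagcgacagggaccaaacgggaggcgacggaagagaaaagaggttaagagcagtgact
TATAAA begins 39 bases before the start in Crhr2 and 25 bases before it in Pomc. On either strand it occurs in 13.6% of the 32851 mouse windows of 300 bases. AAGGTCA occurs in Pomc, 63 bases before the start, and in 4.72% of all windows. The full cyclic AMP response element, TGACGTCA, occurs in 1.79% of windows and in none of the 4 members' windows that were matched. The E-box CANNTG, the motif of myogenic factors, has 1 match in Crhr2 and 2 in Pomc and is found in 72.3% of windows. The windows of Crhr1 and Adcyap1r1 hold none of these motifs on either strand. Their GC content is 75.0% and 67.3%, against 59.0% in both Crhr2 and Pomc. A match of letters is a description of the sequence only.

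Values are linear intensities in arbitrary units, as deposited. A signal was called dim when the mean of its log2 values lay below that of the median probe set. By that measure 3 of the 9 probe sets were bright, 1 of Crhr2 and 2 of Penk, and 6 were dim. Differences are KO minus WT on the scale log2(intensity + 14), and this scale understates the change of dim signals. Their standard error (SE) is from a linear model fitted to all probe sets (limma). It is moderated, that is, drawn towards the error of probe sets of like intensity. It is thus not the spread of a probe set's own pools, which can be smaller or larger. Arrays of the 2 genotypes did not overlap for 6 of the 9 probe sets, 4 with KO lower and 2 with KO higher. Over all 12422 probe sets, 34.6% were free of overlap, 17.6% with KO lower and 17% with KO higher. Because the genes were chosen with these differences known, nothing is read from the comparison of those shares. The same holds for the shares of all probe sets with as large a difference that are given below, which are not tests.

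**Figure D1:**
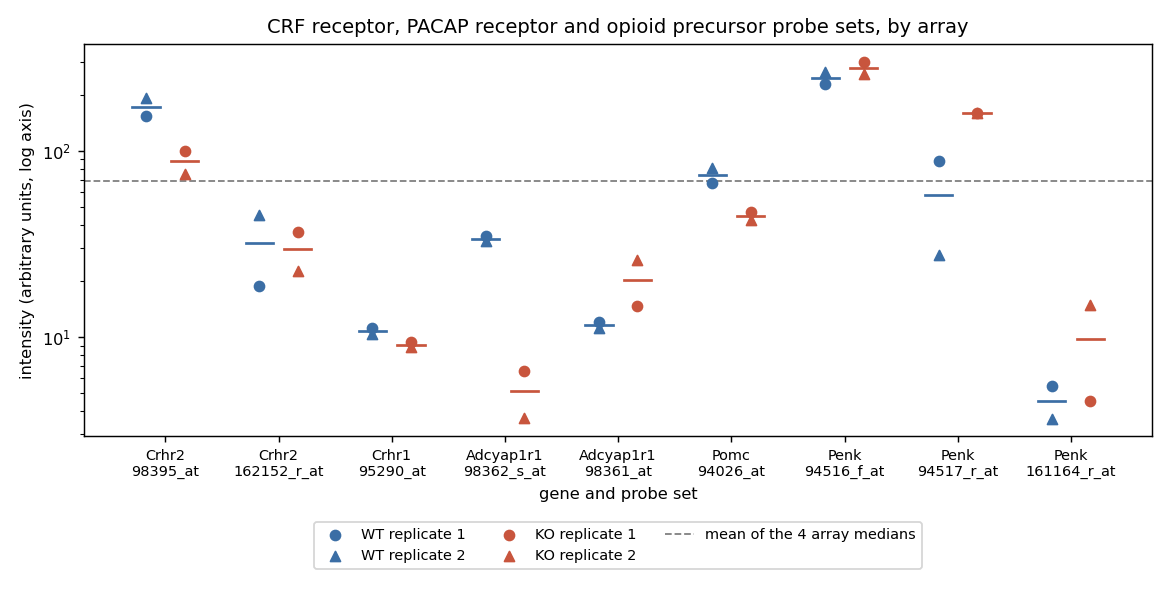
Intensity (log axis) of the 9 probe sets on each of the 4 arrays; circles are replicate 1, triangles replicate 2, short bars the mean of 2 arrays, and the dashed line the mean of the 4 array medians. Both KO arrays lie below both WT arrays for Crhr2 98395_at (100.4 and 75.1 against 154 and 192), and the 2 probe sets of Adcyap1r1 lie apart in opposite directions.

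Crhr2 (Entrez gene 12922) is the gene that the knockout targets. Its bright probe set, 98395_at, read 154 and 192 on the WT arrays and 100.4 and 75.1 on the KO arrays. Both KO arrays were below both WT arrays, and the lower WT array was 1.53 times the higher KO array. The WT mean was 173 ± 26.6 (SD, n = 2) and the KO mean 87.7 ± 17.9 (SD, n = 2), or 50.7% of WT. The log2 difference was -0.88 ± 0.25 (SE), and 3.61% of all probe sets had a difference at least as large in either direction. The signal of this probe set was above the array median on all 4 arrays, those of the knockout included. Each array within a genotype differed from its partner by less than the genotypes did: the log2 values of the WT pools were 0.29 apart and those of the KO pools 0.36.

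The second Crhr2 probe set, 162152_r_at, did not follow the first. It read 18.8 and 45.3 on the WT arrays and 36.7 and 22.7 on the KO arrays, so the KO arrays lay between the WT arrays. Its log2 difference was -0.03 ± 0.43 (SE), and it was below the array median on all 4 arrays. Without WT replicate 2 the difference was 0.40 and without KO replicate 2 it was 0.20, so its sign depended on single arrays. In the Affymetrix naming scheme the suffix r marks probe sets designed with some of the selection rules dropped, s marks probes shared by several transcripts, and f marks probes that match a family of similar sequences.

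Crhr1 (Entrez gene 12921), the CRF receptor of the pituitary, was dim in muscle. Its 1 probe set, 95290_at, read 11.1 and 10.3 on the WT arrays and 9.34 and 8.86 on the KO arrays, and 12.4% of probe sets were dimmer. The genotypes did not overlap, but the nearest arrays differed by a ratio of 1.11. The log2 difference was -0.10 ± 0.22 (SE), smaller than this moderated error. The pooled SD of the log2 values of its own pools was 0.03. Crhr1 did not read higher on the KO arrays, and its signals were in the range where the added 14 exceeds the signal itself: the difference was -0.18 with a pseudocount of 3.5 and -0.04 with one of 56.

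Adcyap1r1 (Entrez gene 11517), the PACAP receptor gene, had 2 dim probe sets that went opposite ways. The first, 98362_s_at, read 34.8 and 32.8 on the WT arrays and 6.58 and 3.65 on the KO arrays. The WT pools were close to each other, and the lower WT array was 4.99 times the higher KO array. The KO mean of 5.11 ± 2.07 (SD, n = 2) was 15.1% of the WT mean of 33.8 ± 1.41 (SD, n = 2). The log2 difference was -1.33 ± 0.28 (SE), and 0.588% of all probe sets had one as large. Its size depended on the pseudocount, at -2.14 with one of 3.5 and -0.56 with one of 56.

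The other Adcyap1r1 probe set, 98361_at, read 12.1 and 11.2 on the WT arrays and 14.7 and 25.8 on the KO arrays. Both KO arrays were higher here, with KO replicate 2 well above the other 3 arrays. The log2 difference was 0.40 ± 0.30 (SE). On KO replicate 1 alone against WT it was 0.16, and on KO replicate 2 alone 0.64. Neither probe set exceeded the median of any array, so the deposited values give no single direction for Adcyap1r1.

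Adcyap1r1 lies close to Crhr2 on mouse chromosome 6, as the reference order of genes shows. It is the fourth measured gene on one side of Crhr2, after Inmt, Aqp1 and Ghrhr. Of the 10 measured genes nearest to Crhr2, 5 on each side, 5 were lower and 5 higher in KO, with a median log2 difference of -0.03 against 0.0001 over all probe sets. On the probe set of highest mean, arrays of the genotypes did not overlap for 3 of the 10, Adcyap1r1, Inmt and Prr15, all with KO lower, where 17.6% of all probe sets were free of overlap with KO lower and 34.6% in either direction. The other probe set of Adcyap1r1 was free of overlap with KO higher. Adcyap1r1 was chosen with its difference already known, so nothing is read from the comparison of these shares. Inmt, which encodes an N-methyltransferase of indoles and is the nearest measured gene on that side, read 646 and 648 on the WT arrays and 509 and 407 on the KO arrays. Its log2 difference was -0.49 ± 0.14 (SE). The dim Prr15 differed by -0.23 ± 0.24. Gars, the glycyl-tRNA synthetase gene next to Crhr2 on the other side, read 445 and 356 on the WT arrays and 361 and 332 on the KO arrays, with overlap (-0.19 ± 0.15). Ghrhr, the receptor gene for growth hormone-releasing hormone and another class B receptor, was dim and differed by 0.15 ± 0.43. Aqp1, the water channel of capillary endothelium and red cells, differed by 0.06 ± 0.15. The remaining neighbours Tax1bp1, Znrf2, Ggct and Neurod6 differed by between -0.08 and 0.12. Between Inmt and Adcyap1r1 the arrays of the genotypes overlapped for both Aqp1 and Ghrhr. Neighbours with more than 1 probe set had other values on the rest: -0.42 and -0.04 for Tax1bp1, -0.23 for Aqp1, 0.12, -0.40 and -0.10 for Znrf2, and 0.40 for Adcyap1r1.

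**Figure D2:**
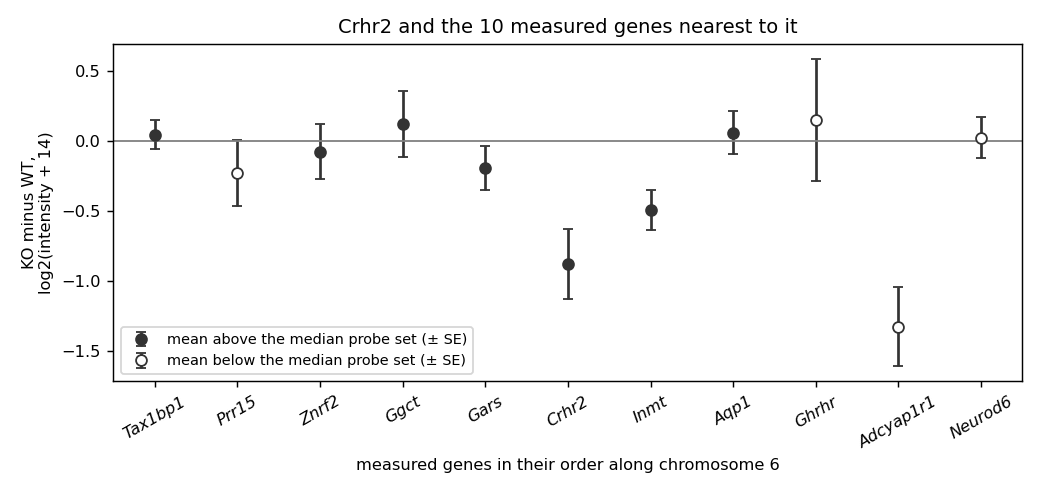
KO minus WT difference on the log2(intensity + 14) scale, with its SE, for Crhr2 (98395_at) and the 10 measured genes nearest to it in their order along chromosome 6; filled points are above the median probe set in mean signal and open points below. Adcyap1r1 (98362_s_at, -1.33) and Crhr2 (-0.88) are lowest, and Aqp1 and Ghrhr, which lie between Inmt and Adcyap1r1, stand at 0.06 and 0.15.

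Pomc (Entrez gene 18976), the precursor of corticotropin, was measured by 1 probe set, 94026_at. It read 67.3 and 80.7 on the WT arrays and 46.7 and 42.6 on the KO arrays. Both KO arrays were lower, the lower WT array was 1.44 times the higher KO array, and only WT replicate 2 was above its array's median. The KO mean of 44.7 ± 2.90 (SD, n = 2) was 60.4% of the WT mean of 74.0 ± 9.47 (SD, n = 2). The log2 difference was -0.58 ± 0.32 (SE), and 11.3% of all probe sets had one as large. With a pseudocount of 56 it was -0.37.

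Penk (Entrez gene 18619), the enkephalin precursor, had 3 probe sets, all with a higher mean in KO, and only 1 of them separated the genotypes. The brightest, 94516_f_at, read 227 and 266 on the WT arrays and 301 and 259 on the KO arrays, so the groups overlapped. Its log2 difference was 0.17 ± 0.17 (SE), and leaving out WT replicate 1 or KO replicate 1 brought it to 0.06 or 0.07, whereas leaving out either replicate 2 brought it to 0.28. This was the steadiest signal among the Penk probe sets, with the higher array of each genotype at 1.17 and 1.16 times the lower.

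The second Penk probe set, 94517_r_at, read 88.3 and 27.5 on the WT arrays and 159.5 and 161 on the KO arrays. The KO arrays were nearly equal, at a mean of 160.1 ± 0.78 (SD, n = 2), whereas the WT arrays differed by a ratio of 3.22. The nearest arrays differed by a ratio of 1.81. The log2 difference was 1.42 ± 0.45 (SE), and 0.394% of all probe sets had one as large. It was 0.77 without WT replicate 2 and 2.07 without WT replicate 1, so its size turned on which WT pool was kept. The dimmest, 161164_r_at, read 5.44 and 3.65 on the WT arrays and 4.53 and 14.9 on the KO arrays. Only KO replicate 2 stood out, and without it the log2 difference of 0.32 ± 0.27 was 0.0007. The larger difference of Penk was thus carried by 1 of its 3 probe sets and was not seen on the brightest.

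**Figure D3:**
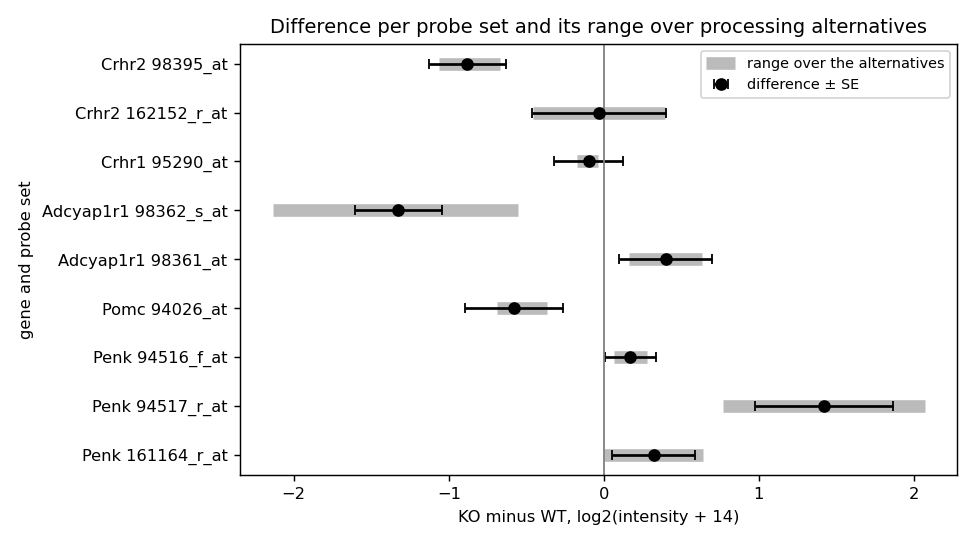
KO minus WT difference of each of the 9 probe sets on the log2(intensity + 14) scale (points, with SE as bars) and its range over the processing alternatives (grey). The range of Crhr2 98395_at, from -1.06 to -0.67, stays below 0; that of Crhr2 162152_r_at, from -0.46 to 0.40, spans 0.

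Across the 9 probe sets, 5 were lower and 4 higher in KO by their mean, and their median log2 difference was -0.03. Genes with more than 1 probe set did not give the same value on each: Crhr2 and Adcyap1r1 each had 1 probe set with KO lower on both arrays and 1 without, and Penk had 1 of 3 apart. Over the whole table the fit called 0 of 12422 probe sets, or 0%, at the threshold of 0.05 after Benjamini-Hochberg adjustment (limma, smallest adjusted p = 0.803). Without adjustment 674 probe sets, or 5.43%, had a p under 0.05.

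The pattern of each gene over the 4 arrays was set against that of all bright probe sets with 1 gene symbol. Likeness was the root-mean-square (RMS) distance of log2 values after each probe set's own mean was removed, and small values mean a like pattern. The nearest to Crhr2 98395_at among 5619 bright probe sets were Adi1, an enzyme of methionine salvage, at 0.11, then Sapcd1 at 0.11 and the desmosomal plakophilin Pkp2 at 0.12. Adi1 read 288 and 353 on the WT arrays and 219 and 173 on the KO arrays. The nearest to Adcyap1r1 98362_s_at were the protease inhibitor Slpi (0.12), the retinol carrier Rbp4 (0.16) and the AP-1 subunit Junb (0.20). The nearest to Pomc were Hypk (0.02), the mitochondrial import factor Timm44 (0.02) and the platelet-derived growth factor receptor Pdgfrb (0.03), and 35 probe sets lay within 0.1 of it. Hypk read 808 and 958 on the WT arrays and 602 and 551 on the KO arrays. The nearest to Penk 94516_f_at were the splicing factor Smndc1 (0.01), Pagr1a (0.02) and the deubiquitinase Usp38 (0.02), of 389 within 0.1. For Crhr1 they were Igh-VS107, Mrfap1 and 4933434E20Rik, all at 0.01. As many as 1163 probe sets lay within 0.1 of Crhr1, whose values hardly moved, so its nearest patterns are not distinctive. These patterns are those of single probe sets: other probe sets of Slpi differed by -0.16, -0.09 and 0.36, that of Junb by 0.25, those of Pkp2 by -0.32 and 0.02, that of Pagr1a by -0.13 and that of Usp38 by -0.32. With 4 arrays many genes share a pattern, and none is implied to share function or control.

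The other genes of the peptide system were taken from lists by role. The CRF ligands and their binding protein (Crh, Ucn, Ucn2, Ucn3 and Crhbp) were not analysed here, as 0 of these 5 symbols were matched to a probe set with 1 gene symbol. Of the other lists, 94 genes were measured, read from the probe set with the highest mean: 49 were lower and 45 higher in KO, and 0 passed the test over all probe sets (limma). Their median log2 difference was -0.02. Arrays did not overlap for 12 with KO lower (12.8%) and 17 with KO higher (18.1%), where 17.6% and 17% of all probe sets did so. The medians of 7 of the 9 lists below changed sign when some single array was left out, so no direction is drawn from them.

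Genes of other class B receptors and of their accessory proteins went both ways. Of 10 other class B receptors and their accessory proteins, 7 were lower and 3 higher, with a median of -0.09. The largest difference in this list was that of the dim Pth1r, the parathyroid hormone receptor gene. It read 5.63 and 8.89 on the WT arrays and 32.3 and 13.1 on the KO arrays (log2 difference 0.74 ± 0.34). Vipr1, a receptor for VIP and PACAP, read 86.4 and 123 on the WT arrays and 66.6 and 66.9 on the KO arrays (log2 difference -0.54 ± 0.29). The glucagon receptor gene Gcgr read 137 and 143 on the WT arrays and 129 and 108 on the KO arrays (-0.22 ± 0.22). Ramp1, the accessory protein that makes the receptor for calcitonin gene-related peptide, was higher on both KO arrays (699.5 and 761) than on the WT arrays (544 and 610.1), a log2 difference of 0.33 ± 0.12. Of the 9 ligand genes of this family, 5 were lower and 4 higher, the arrays overlapped for all 9, and only secretin (Sct, 0.04 ± 0.19) and adrenomedullin (Adm, 0.07 ± 0.29) were bright. The 2 other probe sets of Sct, both dim, differed by 0.48 ± 0.22 and 0.05 ± 0.31. Adcyap1, the gene for PACAP, belonged to the dim ones.

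Other opioid and melanocortin genes were mostly dim. The precursors of dynorphin and nociceptin, Pdyn and Pnoc, differed by -0.14 ± 0.31 and 0.10 ± 0.17. Melanocortin and opioid receptor genes were lower in 3 and higher in 6 of 9 cases (median 0.12). The only bright one was Mrap, the accessory protein of the corticotropin receptor, which is also made in fat. It read 181 and 96.9 on the WT arrays and 89.8 and 74.1 on the KO arrays (-0.62 ± 0.34), and WT replicate 1 was far above the other 3 arrays. Adipocyte markers, with 8 of 10 measured, summed to 5877 and 4509 for WT pools, against 5528 and 4733 for KO pools. Their part in the values of Mrap was not tested.

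Enzymes that cut and store peptide hormones were 12 lower and 8 higher (median -0.04). Pcsk6, a proprotein convertase, was lower on both KO arrays (178 and 170.0) than on the WT arrays (256 and 268), a log2 difference of -0.56 ± 0.16. Its relative Pcsk5 was higher on both (197 and 158, against 118 and 131; log2 difference 0.47 ± 0.21), but its 2 other probe sets differed by 0.09 and -0.04. Pcsk4 differed by 0.39 ± 0.53, with overlap, and by -0.29 on its other probe set.

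Genes of corticosteroid action, the end of the hormonal stress axis, were 6 lower and 3 higher (median -0.06). Hsd11b1, which regenerates active glucocorticoid, differed by 0.15 ± 0.23, the corticosteroid-binding globulin Serpina6 by -0.19 ± 0.21 and the receptor co-chaperone Fkbp4 by -0.17 ± 0.13, all with overlap between genotypes. The other probe sets of Serpina6 and Fkbp4 had the opposite sign, at 0.08 and 0.22. Among the dim genes of this list, 1 was lower and 1 higher without overlap. The glucocorticoid receptor gene Nr3c1 read 65.5 and 72.8 on the WT arrays and 54.6 and 31.6 on the KO arrays (-0.57 ± 0.36). Hsd11b2 was higher on both KO arrays (0.12 ± 0.27), and its other probe set differed by 0.04. The vasopressin, oxytocin and adrenergic list had 6 measured genes, 3 lower and 3 higher (median 0.05), and all 6 were dim.

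Downstream of the receptors, regulators of receptor coupling were 2 lower and 5 higher (median 0.17). The largest difference was that of the dim Rgs4 (-0.79 ± 0.28). It read 27.1 and 25.2 on the WT arrays and 8.18 and 10.2 on the KO arrays. The dim Rgs2 was higher on both KO arrays (0.47 ± 0.35). Arrb1, a beta-arrestin, read 157 and 160.2 on the WT arrays and 172 and 189 on the KO arrays (0.17 ± 0.18), and its other probe set differed by 0.44 ± 0.27. The receptor kinase Grk6 and the G-protein regulator Rgs16 differed by 0.25 ± 0.27 and 0.17 ± 0.32, with overlap, and the other probe set of Rgs16 by -0.45. Of 22 genes of Gs and cyclic AMP signalling, 10 were lower and 12 higher (median 0.05). The phosphodiesterase Pde4b, which degrades cyclic AMP, read 139 and 139.8 on the WT arrays and 182 and 238 on the KO arrays (0.54 ± 0.20). Prkar2a, a regulatory subunit of protein kinase A, read 426 and 491 on the WT arrays and 281 and 409.8 on the KO arrays (-0.41 ± 0.20). The kinase anchor Akap1 differed by 0.40 ± 0.21, with -0.21 and -0.23 on its 2 other probe sets.

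**Figure D4:**
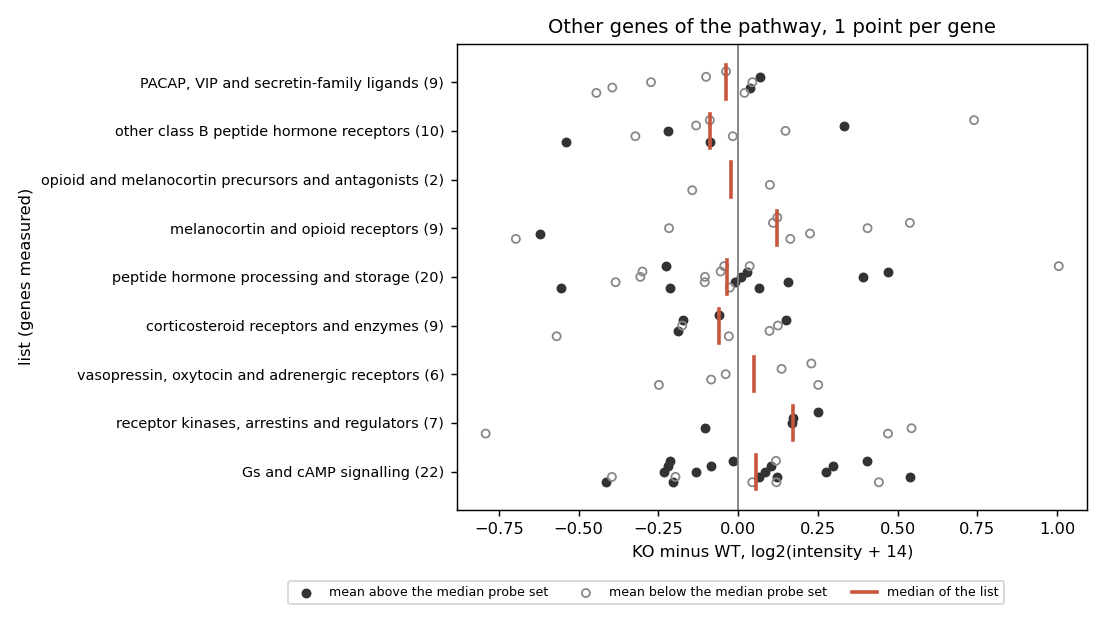
KO minus WT difference on the log2(intensity + 14) scale for the 94 other genes of the pathway, 1 point per gene (filled, above the median probe set in mean signal; open, below) and a red bar for each list's median. The medians lie between -0.09 and 0.17, and genes of every list fall on both sides of 0.

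The arrays also differed in signals of other tissues. Lists for endothelium, Schwann cells and nerve, macrophages and neutrophils, adipocytes and pancreatic islets were also read and are not described in this paragraph. Skeletal muscle markers, the defining genes of the sampled tissue, were bright in 17 of 18 cases, and their summed intensity was 174020 and 175205 for WT pools, against 169798 and 187846 for KO pools. The smooth muscle and pericyte list, a cell type that makes CRHR2, had 9 of 10 genes measured. It summed to 2580.1 and 2487 for WT pools, against 2314 and 2491 for KO pools. Without overlap 4 genes were lower and 1 higher (median log2 difference -0.11). The list holds Pdgfrb, named above as near in pattern to Pomc. Over all probe sets 17.6% were lower and 17% higher without overlap, the shares against which these counts of markers stand. Of 9 pituitary markers 7 were measured and 4 of these, Prl, Fshb, Tshb and Cga, were dim. They summed to 459 and 550.1 for WT pools, against 581 and 502 for KO pools, and 2 genes were lower and 2 higher without overlap (median log2 difference -0.15). Lymphocyte markers, from cells that can make Penk, summed to 5476 and 3453 for WT pools, against 3316 and 4629 for KO pools. The sums of the genotypes thus overlapped. Of the 11 measured, 6 were bright, and Cd3e, Cd3d, Cd3g, Cd8a and Cd2 were dim. Without overlap 0 were lower and 2 higher (median log2 difference 0.25). Of 13 measured liver genes, 6 were lower and 1 higher in KO without overlap (median -0.87, sums 2486 and 3128 in WT, 1215 and 1143 in KO). Only 4 of the 13 were bright, and the list holds Rbp4, named above as near in pattern to Adcyap1r1 98362_s_at. Of 11 exocrine pancreas genes, 10 were higher without overlap (median 2.03; sums 1824 and 1765 in WT, 13661 and 4093 in KO). None of the markers measured read 0, but without detection calls a reading above 0 does not show that a gene was expressed. The ratio of 3' to 5' signal of the actin control was also higher on both KO arrays (0.729 and 0.866, against 0.624 and 0.686). That of the Gapdh control was higher on both as well (1.04 and 0.988, against 0.889 and 0.914). The part of these differences in the values of the 5 genes was not tested.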

How the data were processed

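Gene expression was measured with biotin-labelled total RNA on 1-colour Affymetrix U74Av2 arrays, and groups were taken from the sample titles. The deposited table gives a linear intensity per probe set and array; how the authors summarised probes and corrected background, and any detection calls, is not given in the sources used. Values were already scaled: the mean without the lowest and highest tails was 200.0 on every array, and medians differed by 0.07 on the log2 scale. Precision is limited by the number of arrays.

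After 66 controls were left out of the 12488 probe sets, intensities were transformed to log2(intensity + 14), a pseudocount of 20% of the median, with no filter on level. KO was compared with WT by limma 3.58.1 (R 4.3.3; lmFit, eBayes with intensity trend, Benjamini-Hochberg over all 12422 probe sets, threshold 0.05, two-sided), after a test on simulated data. Symbols came from the platform annotation (10833 probe sets with 1 symbol, 396 with several, 1193 with none; 10817 matched to GRCm38.p6 by Entrez identifier). That assembly served for names, gene order and RefSeq promoters, found for 4 of 5 genes; Penk has none shown.

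The members and lists were chosen with earlier results of these data known. Named genes were all members and the 3 nearest patterns to each member's brightest probe set. The 5 measured neighbours of Crhr2 on each side were also named, as were up to 3 bright genes per list with the largest difference. Pdyn, Pnoc, Adcyap1, Pth1r, Nr3c1, Hsd11b2, Rgs2 and Rgs4 were named after their values were seen. Alternatives were other pseudocounts, scalings, a filter on level, no trend, a replicate block and leaving out each array.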

Additional observations from a re-analysis of the deposited data

How the results depend on the processing

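The count of probe sets called stayed at 0 under all 11 alternatives (limma), with 345 to 831 at an unadjusted p under 0.05 and a smallest adjusted p from 0.0633 (without KO replicate 2) to 0.924 (without WT replicate 2). The Crhr2 difference of -0.88 (98395_at) was negative under all 11, at -0.67 with a pseudocount of 56 and between -1.06 and -0.70 when 1 array was left out. Of the other 8 probe sets, only Crhr2 162152_r_at changed sign, when WT replicate 2 or KO replicate 2 was left out. The 6 dim probe sets gave no value under the filter on level. Scaling by quantiles or by medians moved the median of all differences by at most 0.01 and turned the sign of no list's median, whereas 8 of the 9 list medians changed sign under some other alternative, 7 of them when an array was left out.

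The replicate block, with the replicate number of the labels as a covariate, also called 0 probe sets, with 740 at an unadjusted p under 0.05, and left the Crhr2 difference at -0.88. Deviations of same-numbered arrays correlated at 0.0034. The labels do not say whether the numbers pair the pools. This correlation cannot decide it, as it reflects only shifts shared by many probe sets.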
